A study of Mus musculus with 18 samples.

Results

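Saa1, Saa2, Saa3, Orm1, Orm2, Lcn2, Hp, Hpx, Apcs and Itih4 are genes of acute phase proteins, which the liver releases into blood during inflammation. All probes annotated with any of these 10 symbols were taken, which gave 16 of the 45281 probes on the array and 10 of its 19057 named genes. The genes had been picked from their signals on these same arrays, so their levels and changes are given as a description. They were part of the fit over all probes, and how many passed its threshold is printed beside the share of all probes that did, with nothing read from it. Tests are reported for lists of related genes, which were also drawn up with earlier results of these data known.

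In the acute phase response, interleukin-6 acts on hepatocytes through the receptor Il6ra, the shared subunit Il6st and the transcription factor Stat3. Interleukin-1 and tumour necrosis factor act through NF-kappaB, and C/EBP factors join them on the promoters of these genes. Positive acute phase proteins rise in blood and negative ones, such as albumin and transthyretin, fall. Saa3 and Lcn2 are also made outside the liver, by macrophages, adipocytes and epithelia, and Lcn2 is a granule protein of neutrophils.

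The series measured RNA in C57Bl/6 mice at 17 weeks of age whose genotype was Fapbl-Cre;Apc2lox14/+;tet-KrasLSL-G12D/+ (FatK). Cells labelled as CDCP1+ tumor inducing cells from colon were drawn with antibody MicroBeads out of tumours, under 3 mouse numbers, here called FatK1, FatK5 and FatK7. All cells were kept with Dox (doxycycline). In each label, cells treated with Foxd3 shRNA for 24 h and untreated cells were put on 3 Illumina bead arrays each, which gave 6 groups and 18 arrays. Foxd3 is a forkhead transcription factor, and the question of the design was which genes change when it is knocked down. The Cre is that of the Fapbl-Cre line, each label carries a single mouse number, and no control shRNA is named. Whether replicate arrays were separate cultures is not stated, so all spreads and p-values here are between arrays and may be technical.

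The promoters of the members that differed most between the arms are shown first, with that of Hpx for contrast. RefSeq tables of GRCm38.p6, the build of all positions given here, held 250 bases before to 50 bases after the annotated start for 8 of the 10 genes, and none for Orm1 and Hp. The 3 serum amyloid genes lie together, with promoters at chr7:46742931-46743230 (Saa1, minus strand), chr7:46751583-46751882 (Saa2, plus strand) and chr7:46715627-46715926 (Saa3, minus strand). All of the Saa3 window and most of the Saa1 window lie inside the RefSeq gene spans, which end at 46719615 and 46743181. The starts used for Saa1 and Saa3 are thus not the outer ends of those spans. The promoter of Orm2 is at chr4:63362199-63362498 (plus strand), that of Lcn2 at chr2:32387690-32387989 (minus strand) and that of Hpx at chr7:105600067-105600366 (minus strand). Capitals mark the C/EBP motif TTGCNNAA on either strand.
Saa1: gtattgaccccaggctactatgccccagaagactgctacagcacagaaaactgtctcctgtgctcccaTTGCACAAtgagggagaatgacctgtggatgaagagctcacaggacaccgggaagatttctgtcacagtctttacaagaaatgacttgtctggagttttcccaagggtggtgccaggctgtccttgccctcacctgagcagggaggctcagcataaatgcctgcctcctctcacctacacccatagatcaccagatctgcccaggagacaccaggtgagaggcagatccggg
Saa2: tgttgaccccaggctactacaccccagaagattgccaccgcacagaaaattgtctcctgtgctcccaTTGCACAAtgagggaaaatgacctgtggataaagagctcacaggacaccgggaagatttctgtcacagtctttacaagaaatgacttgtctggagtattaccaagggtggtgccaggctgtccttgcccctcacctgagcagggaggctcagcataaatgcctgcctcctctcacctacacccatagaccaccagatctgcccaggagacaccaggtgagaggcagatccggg
Saa3: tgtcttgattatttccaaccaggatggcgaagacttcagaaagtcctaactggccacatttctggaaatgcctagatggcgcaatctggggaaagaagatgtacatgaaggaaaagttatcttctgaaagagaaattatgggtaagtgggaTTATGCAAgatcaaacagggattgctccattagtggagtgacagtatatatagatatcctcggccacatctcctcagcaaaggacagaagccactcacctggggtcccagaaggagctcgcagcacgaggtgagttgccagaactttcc
Orm2: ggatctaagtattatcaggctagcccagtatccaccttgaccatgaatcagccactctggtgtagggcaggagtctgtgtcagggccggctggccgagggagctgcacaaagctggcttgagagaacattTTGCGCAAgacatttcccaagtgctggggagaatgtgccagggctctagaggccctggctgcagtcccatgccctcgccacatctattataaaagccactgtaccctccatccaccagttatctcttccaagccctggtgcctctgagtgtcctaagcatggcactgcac
Lcn2: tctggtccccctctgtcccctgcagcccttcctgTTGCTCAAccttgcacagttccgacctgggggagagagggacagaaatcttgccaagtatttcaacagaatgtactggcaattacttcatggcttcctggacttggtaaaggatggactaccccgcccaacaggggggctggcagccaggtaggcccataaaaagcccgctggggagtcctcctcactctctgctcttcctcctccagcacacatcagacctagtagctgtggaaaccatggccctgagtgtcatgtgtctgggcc
Hpx: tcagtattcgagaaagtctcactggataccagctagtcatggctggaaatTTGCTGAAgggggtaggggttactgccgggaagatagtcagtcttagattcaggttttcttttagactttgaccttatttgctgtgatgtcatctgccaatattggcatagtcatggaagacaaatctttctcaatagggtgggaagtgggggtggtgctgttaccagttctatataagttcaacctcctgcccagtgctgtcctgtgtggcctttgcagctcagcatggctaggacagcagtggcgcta

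The C/EBP motif was present in 6 of the 8 promoters, against 10.8% of 32851 mouse promoters of the same length. It was chosen after these sequences had been seen. It began 182 bases before the start in Saa1 and 183 in Saa2 with the same letters, TTGCACAA. In Saa3 it lay on the other strand, from 99 to 92 bases before the start. In Orm2, Lcn2 and Hpx it began 120, 216 and 200 bases before the start, and the Orm2 match, TTGCGCAA, reads the same on both strands. The STAT motif TTCNNNGAA, searched on both strands, was present in Apcs and Itih4 and in 8.298% of all promoters. The NF-kappaB consensus had no match in the 8 windows and matched 8.459% of all promoters. Aligned over 301 columns, the Saa1 and Saa2 promoters were 95.35% identical, against 54.05% for Saa1 and Saa3. In RefSeq, Saa1 carries Saa2 as an older synonym and Saa2 carries Saa1, so a probe named for either may read both transcripts, and the 2 genes are uncertain as separate readings.

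The arrays had mean signals of 181 to 294 and detected 17289 to 19993 probes (detection p-value below 0.05). All FatK7 arrays carried hepatocyte transcripts. The summed signal of 10 hepatocyte markers was 70489 to 80128 on FatK7 shRNA arrays and 76630 to 90635 on FatK7 untreated arrays, against 548 to 1697 in FatK1 and 111 to 284 in FatK5. Of these markers, 9 were detected on all 6 FatK7 arrays, while Fgb, fibrinogen beta, was detected on 0 arrays. Brown fat markers summed to 49476 to 79948 in FatK1, to 28143 to 35999 with shRNA and 19761.5 to 23103 without in FatK5, and to 257 to 664 in FatK7. In FatK5 5 of these 10 markers were detected on all 6 arrays, with Cox7a1 and Cox8b highest (mean signals 12395 and 12893). Ucp1, Cidea and Plin1 were each detected on 1 of 6 arrays there, so the FatK5 sum does not by itself show brown fat. Muscle markers summed to 181975 to 232357 in FatK5, and in FatK1 to 26333 to 86575 with shRNA and 290 to 18801 without. The FatK1 muscle sums and the FatK5 brown fat sums thus did not overlap between the arms. Epcam, an epithelial adhesion molecule, was detected on 0 of 18 arrays, so the labelled tissue was not borne out by that marker. Of the other intestinal markers, Fabp2 was detected on 0 arrays, Cdx1, Cdh17 and Krt20 on 1 each, and Cdx2 and Vil1 on 2 each. Muc2 was detected on 4, Lgr5 on 9 and the intestinal galectin Lgals4 on 18. Foxd3 was detected on 1 of 18 arrays, with signals of -10.3 to 16.5. In FatK1 and FatK5, Xist and the Y-linked Eif2s3y split the arrays: untreated arrays 1 and 3 carried Eif2s3y, and untreated array 2 and the shRNA arrays carried Xist. The arrays of FatK1, and those of FatK5, therefore did not all match RNA of a single animal, and in both labels this split lies partly along the arms. All 6 FatK7 arrays carried Eif2s3y. Every array is a bulk sample, in which fewer cells of a type and less RNA per cell cannot be told apart.

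All 10 genes had their highest signals on FatK7 arrays, where all 16 probes were detected on all 6 arrays. Saa2 was detected on 0 arrays of FatK1 and 0 of FatK5. Saa1 (brighter probe), Saa3 and Apcs were each detected on 1 of the 12 arrays of FatK1 and FatK5. Hpx, the scavenger of free haem, was detected on 1 of those 12 with 1 probe and on 0 with the other. Orm1, Lcn2 and Hp departed from this pattern, with all probes detected on 6 of 6 FatK1 arrays and at least 5 of 6 FatK5 arrays. Orm2 and Itih4 lay between, with Orm2 detected on 6 FatK1 arrays and 0 FatK5 arrays. The plot of signals by group shows the brightest probe of each gene.

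**Figure D1:**
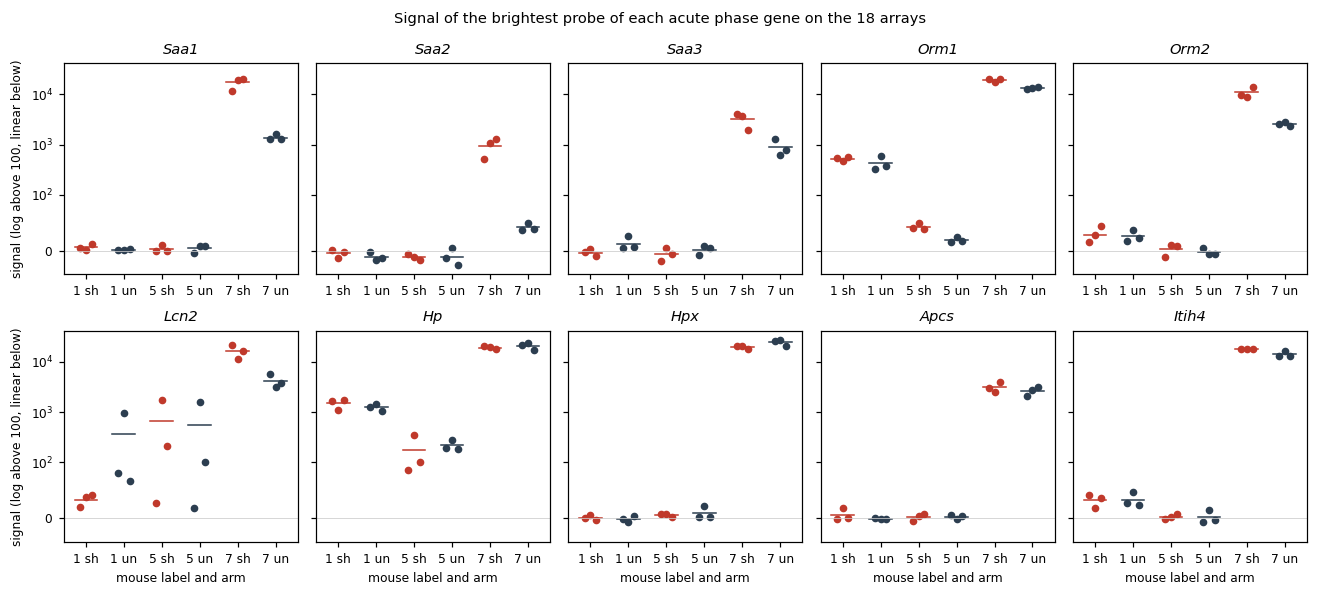
Background-subtracted signal (vertical axis, log scale above 100 and linear below) of the brightest probe of each of the 10 genes on the 18 arrays. The horizontal axis gives the mouse label (1, 5 or 7) and arm (sh, Foxd3 shRNA, red; un, untreated, dark), points are arrays and bars are group means of 3 arrays. Saa1, Saa2 and Orm2 separate the arms in FatK7 (Saa1 at 11786 or above with shRNA and at 1587 or below without), while Hp and Apcs overlap there.

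Between untreated cells of the labels, all 16 probes were higher in FatK7 than in FatK1 and than in FatK5. The threshold of adjusted p below 0.05 was passed by 16 of 16 in each comparison, where 25.1% (FatK1) and 30.8% (FatK5) of all probes passed it as higher and 55.9% and 63.6% in either direction. Nothing is read from this, because the genes were picked on these levels. The median difference of the 16 probes was 4.89 on the log2 scale against FatK1 and 6.65 against FatK5, with medians of -0.08 and -0.05 over all probes. Of the 16 probes, 8 were detected on all 6 FatK1 arrays and 4 on all 6 FatK5 arrays. For the others the offset of 16 enters the log2 values, which give no exact size. For Orm1, which was detected on all 18 arrays, the difference of untreated FatK7 was 4.40 ± 0.17 (SE) against FatK1 and 8.36 ± 0.17 against FatK5. Between untreated FatK5 and FatK1, 7 of 16 probes were past the threshold as lower in FatK5 (23.2% of all probes), namely the Orm1 probe, the Orm2 probe, the 3 probes of Hp and 2 of the 3 Itih4 probes, where 18.8% were higher and 42% passed in either direction.

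Saa1 and Saa2 encode the main serum amyloid A apolipoproteins of mouse plasma, which ride on high-density lipoprotein. The brighter Saa1 probe (gene at chr7:46740497-46743181) had signals of 11786, 19107 and 20317 on FatK7 shRNA arrays 1 to 3. On the 3 untreated arrays it had 1282, 1587 and 1264. The arms did not overlap, and the ratio of mean signals was 12.4. The second Saa1 probe had 324, 783 and 1383 with shRNA and 61.9, 61.3 and 53.8 without, a ratio of 14.1. Both probes were lowest on shRNA array 1 within that arm, and the second probe differed more among the 3 shRNA arrays than the first. Outside FatK7 the brighter probe had signals of -3.49 to 13.2, so no change could be read there.

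Saa2 (chr7:46751833-46754313) had signals of 506, 1049.97 and 1309 on the FatK7 shRNA arrays. On the untreated arrays its signals were 37.1, 50.5 and 40.1. The arms did not overlap, the ratio of means was 22.4, and the lowest value of the shRNA arm was again on array 1. On the 12 arrays of FatK1 and FatK5 Saa2 had signals of -24.8 to 5.46, none of them detected.

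Saa3 (chr7:46711998-46719615), the serum amyloid A that macrophages and adipocytes also make, had signals of 3946, 3684 and 1955 with shRNA in FatK7. Without it the signals were 1269, 618 and 782. The arms did not overlap, with a ratio of means of 3.59, and here the lowest value of the shRNA arm was on array 3, the array that was highest for Saa1 and Saa2. In FatK1, where brown fat markers summed to 49476 or above, Saa3 had signals of -9.32 to 26.5 and was detected on 1 of 6 arrays.

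Orm1 and Orm2 encode orosomucoid (alpha-1-acid glycoprotein), a binder of basic drugs in plasma. Orm1 (chr4:63344556-63348163) had 19689, 17456 and 19983 with shRNA and 12726, 13468 and 13571 without in FatK7, a ratio of 1.44 without overlap. Orm2 (chr4:63362449-63365877) had 9744, 8979 and 14128 with shRNA. Without shRNA it had 2524, 2804 and 2308, a ratio of 4.30, also without overlap. On the neqc log2 scale the difference between the arms was 2.36 ± 0.24 for Orm2 and 0.88 ± 0.17 for Orm1 (SE). The Orm1 signals lay between percentiles 99.6 and 99.98 of their arrays, and whether a probe still scaled with RNA at that height was not tested.

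Orm1 was the member whose change had the same sign in all 3 labels with all 18 arrays detected. In FatK5 its signals were 40.3, 49.7 and 39.1 with shRNA and 15.8, 25.6 and 17.5 without, so the arms did not overlap at a level close to background. In FatK1 they were 543, 464 and 563 with shRNA and 325, 596 and 383 without, and the arms overlapped. The log2 changes were 0.10, 0.61 and 0.88 (SE 0.17 each) in FatK1, FatK5 and FatK7. In the fit over 6 label and arm means the change was 0.53 ± 0.16. In FatK1 the sign turned to -0.35 without untreated arrays 1 and 3 of FatK1 and FatK5, the arrays that carried Eif2s3y.

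Lcn2 (chr2:32384637-32387739) encodes lipocalin-2, which binds the iron carriers of bacteria. In FatK7 it had signals of 21056, 11340.1 and 16463 with shRNA. Without shRNA it had 5661, 3190.4 and 3783. The arms did not overlap and the ratio of means was 3.87. Its change on the log2 scale was 2.43 ± 1.21, with an SE well above those of the other members. That SE comes from the spread within all 6 groups, FatK1 and FatK5 included.

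In FatK1, Lcn2 had 20.9, 38.2 and 41.2 with shRNA and 81.6, 951 and 66.1 without, so all shRNA arrays lay below all untreated arrays. In FatK5 it had 26.8, 1769.95 and 210 with shRNA and 18, 1578 and 104 without, and the arms overlapped. In FatK1 untreated array 2 stood apart, and in FatK5 array 2 of each arm did. The log2 change within FatK1 was -2.30 ± 1.21, -1.11 without untreated array 2 and -4.68 without untreated arrays 1 and 3, those that carried Eif2s3y. Within FatK5 it was 0.31 ± 1.21, -1.06 without shRNA array 2, 1.83 without untreated array 2 and -2.73 without untreated arrays 1 and 3.

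Neutrophil markers were high on those same arrays. The summed signal of the 9 markers on the array, of 10 listed, was 464 to 1587 on FatK1 shRNA arrays and 1770.2 to 18355 on FatK1 untreated arrays, with 18355 on untreated array 2. In FatK5 it was 362 to 38601 with shRNA and 313 to 27008 without, with the highest value of each arm on array 2. In FatK7 it was 631 to 3821 with shRNA and 354 to 458 without, with the highest value on shRNA array 1. Of the 9 markers, the granule genes Mpo, Ngp and Ltf were detected on 0 of 6 FatK7 arrays, Camp and Cxcr2 on 1 each, Elane on 3 and Retnlg on 5. S100a8 and S100a9, calcium-binding proteins of neutrophils and monocytes, were detected on all 6, with S100a8 at a mean signal of 716. The part of neutrophil RNA in the Lcn2 values of the 3 labels was not tested. In FatK7 the Lcn2 change was 2.18 without shRNA array 1. The brighter Saa1 probe had signals of -3.49 to 13.2 over the FatK1 and FatK5 arrays. It was detected on 1 of 6 FatK1 arrays and 0 of 6 FatK5 arrays, so its relation to the neutrophil sums could not be read there.

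**Figure D2:**
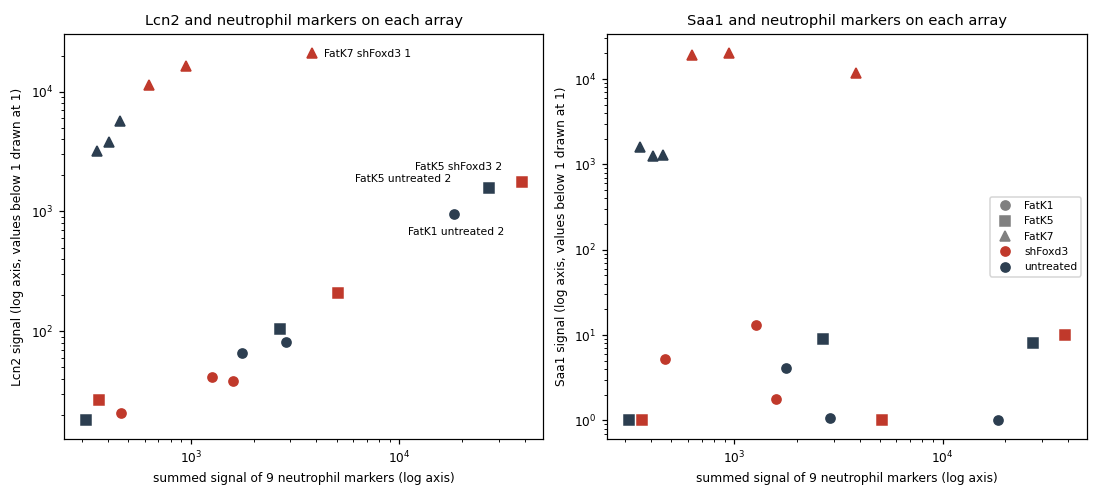
Signal of Lcn2 (left) and Saa1 (right) against the summed signal of 9 neutrophil markers on each of the 18 arrays, all axes on a log scale, with signals below 1 drawn at 1. Circles are FatK1, squares FatK5 and triangles FatK7 arrays, with shRNA in red and untreated in dark. Among FatK1 and FatK5 arrays Lcn2 and the marker sum are high together (951 to 1769.95 on the 3 labelled number 2), while FatK7 arrays lie apart with Lcn2 at 3190.4 or above.

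Hp (chr8:109575128-109579172) encodes haptoglobin, which captures free haemoglobin. In FatK7 the first of its 3 probes had 16655, 14609 and 15832 with shRNA and 13952, 13488 and 10077 without, with no overlap and a ratio of 1.26. The second had 18602, 15434 and 15712 with shRNA and 14656, 15684 and 9928 without, and the arms overlapped. The third had 20385, 19272 and 17575 with shRNA and 21809, 23243 and 17164 without, with overlap and a ratio of 0.92. The 3 probes therefore disagreed on the direction of the signal within FatK7, and the changes on the log2 scale were 0.55, 0.57 and 0.04. In FatK1 the 3 probes spanned 354 to 682, 511 to 942 and 1039 to 1709, and in FatK5 9.90 to 55.6, 29.95 to 102 and 86.7 to 345.

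Hpx (chr7:105591611-105600116) encodes hemopexin, which carries free haem to the liver. Its 2 probes in FatK7 also disagreed. The first had 20366, 20549.7 and 18029.8 with shRNA and 25524, 26670 and 20757 without, a ratio of 0.808 with all shRNA arrays below all untreated arrays. The second had 20362, 18520.3 and 18001 with shRNA and 19137, 17652 and 14970 without, a ratio of 1.10 with overlap. On the log2 scale the changes were -0.14 ± 0.14 and 0.44 ± 0.12. Both lay between percentiles 99.8 and 99.99 of their arrays.

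Apcs (chr1:172893961-172895054) encodes serum amyloid P, a pentraxin that is the main acute phase pentraxin of the mouse. Its FatK7 signals were 3048, 2528 and 3936 with shRNA and 2100.3, 2743 and 3165 without. The arms overlapped, with a ratio of 1.19 and a log2 change of 0.38 ± 0.21. Itih4 (chr14:30886476-30901986) belongs to the inter-alpha-trypsin inhibitor heavy chain family. Its first probe had 6862, 7955 and 10247 with shRNA and 5169, 6709 and 5205 without. Its second had 17747, 17909 and 17852 against 12816, 16021 and 12997, and the other probe 8871, 10417 and 10454 against 7070.5, 8012 and 7236.5. All 3 Itih4 probes had arms without overlap, with ratios of 1.47, 1.28 and 1.33.

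Over the 16 probes in FatK7, 11 had all shRNA signals above all untreated signals, 1 had them below and 4 overlapped. Among all 14799 probes detected on the 6 FatK7 arrays, 2.3% had the first arrangement and 16% the second. In FatK1, of the 8 member probes detected on all 6 arrays, 0 were above, 1 (Lcn2) was below and 7 overlapped, against 19.6% above and 1.57% below in all detected probes. In FatK5, of 4 such probes, 1 (Orm1) was above and 3 overlapped, against 9.81% above and 0.684% below. The members were picked on these signals, so nothing is read from these shares.

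On the normalised log2 scale, changes in FatK7 ranged from -0.14 to 4.09. The median of the 16 probes was 0.73 and that of all 24817 tested probes -0.0036. Ordered by the change, the brighter Saa1 probe was at place 1 of 24817, Saa2 at 2 and the second Saa1 probe at 3. Lcn2 was at 10, Orm2 at 12, Saa3 at 20 and Orm1 at 141. The Itih4 probes followed at 240, 308 and 473, and the last was an Hpx probe at 19060. The changes were 4.09 ± 0.25 and 3.09 ± 0.36 for the Saa1 probes, 3.71 ± 0.28 for Saa2 and 1.90 ± 0.23 for Saa3 (SE). The untreated Saa2 and second Saa1 signals were below 100, so their log2 changes depend on the offset of 16.

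The threshold was passed by 6 of 16 probes as higher and 0 as lower, which were those of Saa1 (2 probes), Saa2, Saa3, Orm1 and Orm2. Of all probes, 0.496% passed as higher, 0.334% as lower and 0.83% in either direction, and nothing is read from the comparison. Without quantile normalisation 5 passed, and over the 14 alternatives 5 to 10 did. Within FatK7 the fit called 123 probes higher and 83 lower of all probes, and without quantile normalisation 52 higher and 179 lower, with a median of -0.125 over all probes. The Saa1 change was then 3.58, that of Saa2 3.98, of Saa3 1.83 and of Orm2 2.07, while Orm1 stood at 0.52.

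**Figure D3:**
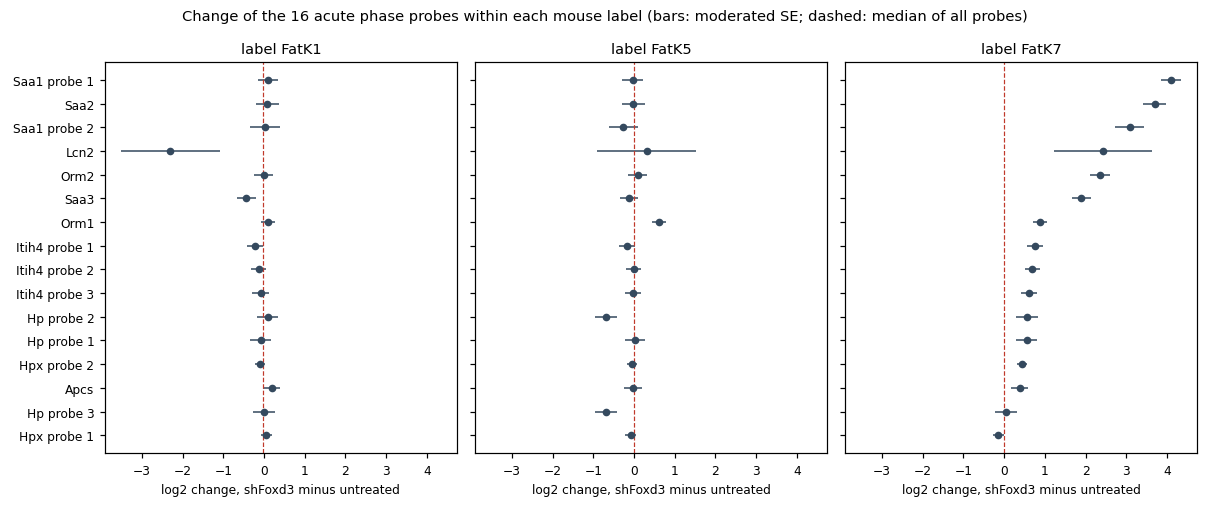
Change of each of the 16 probes (rows, ordered by FatK7) in each mouse label, as log2 of shRNA minus untreated after normalisation, with the moderated standard error as bars. The dashed line is the median over all 24817 probes. FatK7 changes run from -0.14 to 4.09, while in FatK1 and FatK5 most points lie near 0 and Lcn2 has the widest bars (SE 1.21).

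In FatK1 and FatK5, 0 of 16 probes passed the threshold in either direction, where 0.737% of all probes in FatK1 (0.58% higher, 0.157% lower) and 0.25% in FatK5 (0.109% higher, 0.141% lower) did. The medians of the 16 probes were -0.0094 and -0.03. In FatK1 the lowest value was that of Lcn2 and the highest 0.19 for Apcs. In FatK5 the range was -0.70 (an Hp probe) to 0.61 (Orm1). The change in FatK7 minus the mean of FatK1 and FatK5 had a median of 0.81 over the 16 probes, with 5 past the threshold as higher, against 0.137% of all probes as higher, 0.0604% as lower and 0.197% in either direction. Those 5 were the probes of Saa1 (2 probes), Saa2, Saa3 and Orm2, at 4.06, 3.20, 3.68, 2.18 and 2.32. Nothing is read from that count either. Of these genes only Orm2 was detected on all arrays of another label, FatK1, at signals of 15.7 to 44.2.

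Over the 6 means of label and arm, 0 of 16 probes passed the threshold, with a median of 0.17. Of all probes 0.105% passed (0.0282% as higher and 0.0766% as lower), and 0 did without the irregular probes described below. The changes were 1.39 ± 0.75 and 0.95 ± 0.60 for the Saa1 probes, 1.26 ± 0.68 for Saa2, 0.45 ± 0.42 for Saa3 and 0.81 ± 0.44 for Orm2. These rested on FatK7. Without FatK7 the brighter Saa1 probe had a change of 0.04, Saa2 0.03, Orm2 0.04 and Saa3 -0.28.

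Other positive acute phase proteins were counted beside the members. Of 33 listed genes 26 were tested, and within FatK7 3 rose, 0 fell and 23 did not pass. Of all probes, 0.496% passed there as higher and 0.334% as lower. The list median was 0.24, with 21 of 26 changes above 0, against a median of -0.0036 over all probes. Fgl1, a fibrinogen-like protein of hepatocytes, rose by 1.22 ± 0.19 (adjusted p = 0.00185), with signals of 16286.5, 15819 and 17157.5 with shRNA and 7846, 11608 and 8095 without. Il1rn, the antagonist of the interleukin-1 receptor, rose by 1.10 ± 0.17 (adjusted p = 0.00173), with 295, 202 and 150.3 with shRNA and 110.2, 72.4 and 84.5 without. Itih3, of the same family as Itih4, rose by 0.82 ± 0.17 (adjusted p = 0.03), with 16757, 14027 and 17177 with shRNA and 11431.5, 11613 and 10063 without.

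The arms did not overlap for these 3 genes. Other probes of Fgl1 had changes of 0.79 (adjusted p = 0.0904) and 1.23 (adjusted p = 0.00207), a second Itih3 probe 0.97 (adjusted p = 0.00295) and a second Il1rn probe 0.37 (adjusted p = 0.559). The call of Itih3 was lost in 9 of 14 alternatives, with adjusted p up to 0.582, that of Fgl1 in 2 (adjusted p = 0.496 from the series matrix and 0.052 from the 6 FatK7 arrays alone) and that of Il1rn in 2 (adjusted p = 0.197 and 0.0502).

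Serpina3n, Lbp and Cd14 were named whatever their values, and none passed in FatK7. Serpina3n, a protease inhibitor, had a change of 0.49 ± 0.59 (adjusted p = 0.943) and Lbp, which binds lipopolysaccharide, 0.43 ± 0.19 (adjusted p = 0.47). Cd14, a partner of the lipopolysaccharide receptor, had 1.11 ± 0.29 (adjusted p = 0.0861) with a signal of 1188 on shRNA array 1 and 279 and 330.1 on the other arrays of that arm. The Cd14 change was 1.47 without array 2 of that arm (adjusted p = 0.012) and 0.63 without array 1. Over the 14 alternatives its limma adjusted p ran from 0.012 to 0.491. In FatK5 1 gene of this list fell, the complement gene C4b, by 1.24 (adjusted p = 0.0174). In FatK5 0.141% of all probes passed as lower. The sums of brown fat markers, with Cox7a1 and Cox8b highest, were higher there with shRNA without overlap. The Xist and Eif2s3y split also lay partly along the FatK5 arms. The part of these differences in the fall of C4b was not tested. C4b, like Trf and Pon1 next, was named after its value was seen.

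In FatK7, where 0.83% of all probes passed, negative acute phase proteins (13 of 14 listed genes tested) had 0 rises and 0 falls. Their median was -0.19, and 1 of 13 had a change above 0. Ttr, transthyretin, had a change of -0.0015 ± 0.21 (adjusted p = 0.999). Alb, albumin, had -0.29 ± 0.18 (adjusted p = 0.708), but its probe gave signals of only 18 to 52.5 on these arrays. In FatK1, 2 of the 13 rose, Trf (transferrin) by 1.05 (adjusted p = 0.0458) and Pon1 (paraoxonase 1) by 1.53 (adjusted p = 0.00376), where 0.58% of all probes passed as higher. Some marker sums moved with the arms there, with muscle at 26333 to 86575 with shRNA and 290 to 18801 without, and fibroblast at 14680.1 to 18377 and 7315 to 9191. White fat (17658 to 18856 and 14902 to 15467) and endothelial sums (2261 to 2698 and 2056 to 2085) were also higher with shRNA. Neutrophil sums were lower (464 to 1587 and 1770.2 to 18355). Hepatocyte sums overlapped (788 to 1697 and 548 to 1026), as did brown fat, macrophage and intestinal sums. The Xist and Eif2s3y split also lay partly along the FatK1 arms. The part of the marker sums and of that split in these rises was not tested.

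Upstream of the members, no listed gene passed in FatK7, where 0.83% of all probes passed in either direction. Among ligands 7 of 10 were tested with a median of 0.12, among receptors and kinases 12 of 14 with a median of 0.15, and among transcription factors 9 of 12 with a median of 0.16. Il6ra had a change of -0.28 ± 0.24 (adjusted p = 0.856) and Il6st 0.50 ± 0.16 (adjusted p = 0.223). Stat3 had 0.76 ± 0.20 (adjusted p = 0.106), with signals of 1452, 1688 and 1197 with shRNA and 860, 971 and 853 without. The C/EBP genes Cebpb and Cebpd had 0.16 ± 0.14 (adjusted p = 0.88) and -0.0013 ± 0.19 (adjusted p = 0.999). The proteins they encode were not measured.

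The list of feedback and immediate targets of interleukin-6 and NF-kappaB had a median of 0.59, with 12 of 13 changes above 0 and 0 past the threshold. In FatK7 0.83% of all probes passed it. Socs3, which shuts off interleukin-6 signalling, had a change of 1.17 ± 0.48 (adjusted p = 0.427), with a signal of 1012 on shRNA array 1, 177 and 161.1 on shRNA arrays 2 and 3, and 149, 170.3 and 88.1 on untreated arrays. The highest normalised value among the 6 FatK7 arrays lay on shRNA array 1 for 10 of these 13 genes and for 5 of the 7 ligands. It did so for 26.7% of the 14799 probes detected on all 6 arrays, a condition not set for the list genes, so the sets are not alike. For the 16 member probes it lay on shRNA array 3 for 12 and on array 1 for 2. Of the 14799 probes, 2109 were highest on shRNA array 3. The members were picked on these signals, so nothing is read from their places. All these places were counted after the values had been seen. Macrophage markers, 9 of 10 on the array, summed to 16193 on shRNA array 1, to 8205 and 8990 on the other shRNA arrays and to 6937 to 8343 on untreated arrays. The part of these cells in the list values was not tested. Without shRNA array 1 the changes of the members were 4.52 for Saa1, 4.20 for Saa2, 2.50 for Orm2 and 1.78 for Saa3.

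Of 15 tested receptors, partners and clearance genes of the acute phase proteins, 0 passed in FatK7, and their median was 0.15. There 0.83% of all probes passed. Over the 6 means of label and arm, 0 genes of the 7 lists passed, against 0.105% of all probes. For the treatment by label difference, 1 list gene passed, Fgl1, at 1.21 ± 0.23 (adjusted p = 0.0252). Of all probes, 0.137% passed that term as higher and 0.0604% as lower. The Fgl1 change was -0.04 in FatK1 and 0.05 in FatK5, where hepatocyte marker sums were 548 to 1697 and 111 to 284. Whether a change of Fgl1 could be read in those labels is not shown, so the term may only repeat the FatK7 change.

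**Figure D4:**
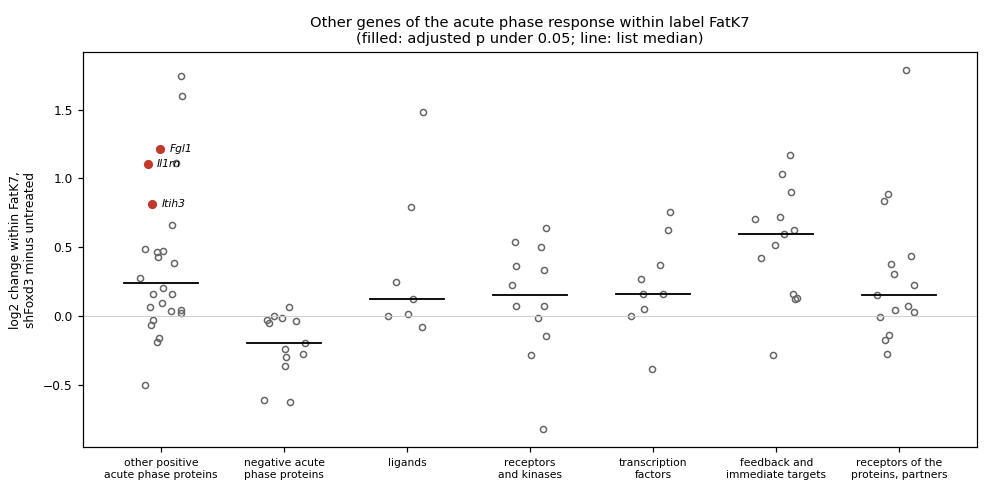
Change within FatK7 (vertical axis, log2 of shRNA minus untreated) of each tested gene in the 7 lists, by its brightest probe, with horizontal jitter only. Filled points passed adjusted p below 0.05, and black lines are list medians, from -0.19 for negative acute phase proteins to 0.59 for feedback and immediate targets. The 3 filled genes are Fgl1, Il1rn and Itih3.

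Genes with the pattern most like each of 4 members were named by Pearson's r of log2 values. Over all 18 arrays, where the contrast of FatK7 with the other labels sets most of the spread, Saa1 was followed by Qsox1 (r = 0.98), Il1rn (0.98) and Serpina3f (0.98). Saa3 was followed by Slc13a3 (0.99), Tgm1 (0.99) and Rgs1 (0.99), and Orm1 by Sema4a (0.99), Hsd3b7 (0.99) and Man2b1 (0.99). Lcn2 was followed by Slpi (0.96), an inhibitor of neutrophil elastase, Fpr2 (0.96), a receptor for serum amyloid A, and Sla (0.96). Over the 6 FatK7 arrays the nearest genes were Tcaf1 (0.998), Muc2 (0.995) and Tgm1 (0.99) for Saa1, and Cd69 (0.99), Rbm38 (0.988) and Ppp1r12a (0.987) for Saa3. They were Nlrc5 (0.994), 4930528A17Rik (0.991) and Mt2 (0.991) for Orm1, and Fosl2 (0.995), Psme1 (0.993) and Smad1 (0.991) for Lcn2. With 6 arrays and 24817 probes such values are a description, and the Muc2 probe had irregular signals. Over the 12 FatK1 and FatK5 arrays, a choice made after the values had been seen, Lcn2 was followed by Fpr2 (0.979), Ifitm6 (0.973), Chil1 (0.971), Cd177 (0.971) and Pglyrp1 (0.97).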

How the data were processed

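RNA was read on 18 Illumina arrays. The deposited non-normalised table held a signal intensity, with background already subtracted by the authors (23.2% to 30.9% of signals per array lay below 0), and a deposited detection p-value for each probe. The series matrix, also deposited, was an alternative: its intensity was the same signal times a factor of 0.733 to 1.53 repeating every 18 probes. The scanner software is not given in the sources used here. Intensities were then corrected and quantile normalised to log2 with neqc (limma 3.58.1, R 4.3.3, offset 16). Probes with detection p below 0.05 on at least 3 arrays were kept (24817). Limma (lmFit, eBayes with trend, two-sided, Benjamini-Hochberg over all kept probes, threshold 0.05) was fitted to 6 group means of 18 arrays, and to 6 label and arm means with mouse label as block. For list genes with several probes the brightest was used. The number of arrays limited the precision.

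Symbols came from the platform annotation: 34885 probes had 1 symbol, 18 several and 10378 none, and all 10 member genes matched RefSeq. Irregular probes (signals with over 7 digits, or detection p-values off a grid of 936 steps by over 0.002 of a step) numbered 45, of which 0 were members. Members and lists were chosen with earlier results of these data known. Named genes were all members, per list up to 4 genes past the threshold in FatK7 and up to 2 across labels, 12 fixed signalling and acute phase genes, Foxd3, and 3 nearest genes by r for 4 members. Array numbers were not taken as pairs. Scripts were tested on simulated data. Promoters and motifs used Python 3.11.15 and Biopython 1.88.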

Additional observations from a re-analysis of the deposited data

Results flagged for a closer look

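Fgl1 had a different change with the shRNA in FatK7 than in the other labels, by the treatment by label term of the limma fit: 1.21 ± 0.23 on the log2 scale (adjusted p = 0.0252). Its change was 1.22 in FatK7, -0.04 in FatK1 and 0.05 in FatK5. The signals of Fgl1 in FatK1 and FatK5 are not given here, so whether a change could be read there is not shown. In those labels the Xist and Eif2s3y split also lay partly along the arms.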

How the results depend on the processing

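Over alternatives, members past the threshold in FatK7 numbered 5 to 10 of 16. Of 944 member values 912 moved by no more than a set spread and 32 by more. Within a label that spread was the one between arrays. For changes across labels it was the spread of the 3 label changes, which is wide where FatK7 stands apart. The fall of the brighter Saa1 probe from 1.39 to 0.04 without FatK7 was thus counted as within it. Of 196 list gene values 182 kept the call or its absence, 13 lost and 1 gained the call. Direction was not kept by all of them. The sign held in 9 of 14 alternatives for Cebpd, 12 for Ttr and 13 each for Il6ra and Cebpb. No tested list gene that had passed changed sign. Counts of called probes over the whole array moved by over 1.5 times as follows, and the cause was not tested. Across labels (26), 41 were called with no detection filter and 0 without mouse label as block (40 at unadjusted p below 0.05). There were 0 without irregular probes (1393), and 23 to 50 leaving out a label (50 without FatK7). Within FatK1 (183) there were 298 with the replicate block, 37 from its 6 arrays alone, 342 without untreated array 2 (chosen after seeing the data), 1044 without untreated arrays 1 and 3 and 70 to 390 leaving out an array. Within FatK5 (62) there were 27 from its 6 arrays, 31 without irregular probes, 1585 without untreated arrays 1 and 3 and 65 to 267 leaving out an array. Within FatK7 (206) there were 119 with no further background correction, 322 with offset 50, 77 from the series matrix, 73 from its 6 arrays and 94 to 386 leaving out an array. The treatment by label term (49) gave 165 without quantile normalisation (25 higher and 140 lower, median -0.21), 94 with offset 50, 130 without untreated array 2, 1244 without arrays 1 and 3 and 26 to 144 leaving out an array. Without quantile normalisation the split of higher and lower calls was 208 and 21 in FatK1 (144 and 39), 34 and 23 in FatK5 (27 and 35) and 7428 and 5133 for untreated FatK7 minus FatK1 (6217 and 7649). Leaving out an array, the untreated comparisons gave 9536 to 10141, 12638 to 13123 and 14609 to 15229 calls. Same-numbered arrays of the 2 arms deviated together by r of -0.02 to 0.26, not above 0.1 for every number, and the replicate block gave 61 calls in FatK5, 234 in FatK7 and 57 in the treatment by label term. Signal over background limits Saa1, Saa2, Saa3, Hpx and Apcs outside FatK7.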
